A study of Oryza sativa with 6 samples.

Results

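Transcripts that gave a clear signal in wild-type rice seedlings and a dim one in seedlings with a T-DNA mutation in CHR729 were picked out by their deposited array signals. A probe set, a group of short probes that together report on 1 transcript or a few like ones, was taken when its linear signal was at least 120 on all 3 wild-type arrays and at most 60 on all 3 mutant arrays. Of 57194 rice probe sets, 7 met both limits. The array annotation joined 5 of them to 1 gene each, LOC4338414, LOC4333210, LOC4334834, LOC4330133 and LOC4344207, and named no gene for the other 2. The sources used here give these loci a locus number with no gene name or function, so they are described by their signals, by the other probe sets of the same genes and by their neighbours in the genome.

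The seedlings were 11 days old, and whole-seedling RNA was hybridized to Affymetrix rice arrays, 1 array per sample and 3 samples per genotype. All seedlings were grown on agar medium with sucrose under a light and dark cycle. The wild-type samples were of the cultivar Hwayoung, and the mutant samples carried the T-DNA mutation in CHR729. The labels give neither the cultivar of the mutant, nor its zygosity, nor the number of insertion lines. Replicates are called biological, and nothing says whether the arrays of a genotype came from separate plants, sowings or days. In whole seedlings, fewer cells of a type and less RNA per cell cannot be told apart. No table used here pairs a probe set with CHR729, so its own transcript is not analysed here.

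CHR729 belongs to the CHD family of chromatin remodellers, proteins that use ATP to move or evict nucleosomes and so change the access of the transcription machinery to DNA. CHD proteins carry chromodomains, which bind methylated histone tails, and plant members of the family are known to affect both active genes and genes held silent by Polycomb marks. A transcript that is clear in wild type and dim in the mutant is therefore of interest as a candidate target, but array signals show neither binding nor chromatin state. An effect of the mutation in CHR729 cannot be told apart from any other genetic difference between the mutant and wild-type seedlings.

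Losses of this kind were rare on these arrays. Of the 18973 probe sets with a signal of at least 120 on all wild-type arrays, 18065 (95.2%) stayed at or above that limit on all mutant arrays and the 7 members (0.0369%) were at or below 60 on all of them. With the genotypes exchanged, 40 probe sets were at most 60 on all wild-type arrays and at least 120 on all mutant arrays, out of 19336 that were on in the mutant (0.207%). Medians per array lay between 67.7 and 71.2, and between 44.6% and 46.1% of probe sets were under 60 on a given array, so a signal under 60 is a common one. Detection calls are not used here, and whether a dim signal stands for any transcript was not tested.

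**Figure D1:**
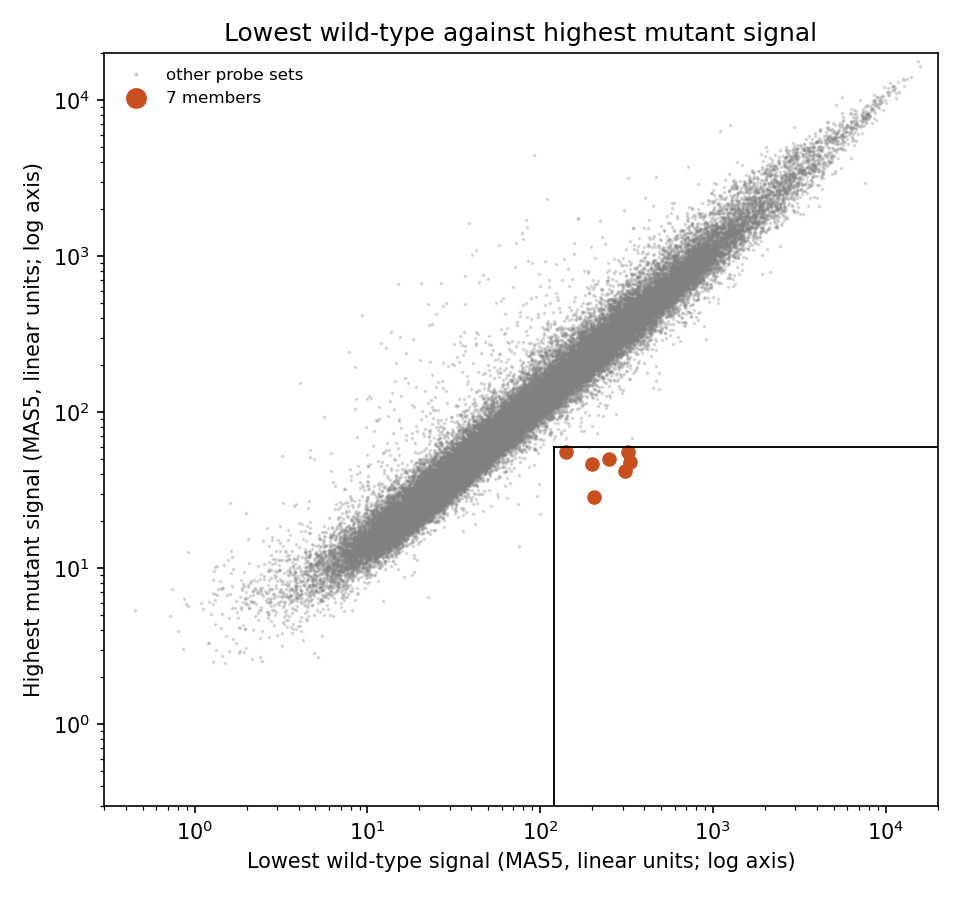
Each point is a probe set, placed by its lowest signal among the 3 wild-type arrays (horizontal, linear MAS5 units on a log axis) and its highest signal among the 3 mutant arrays (vertical, same units). The box marks the limits of 120 and 60; the 7 members (orange) are the only points inside it, and the other probe sets (grey) form a cloud along the diagonal.

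Because the limits were set on these same arrays, the difference between the genotypes is how the members were found and no test of it is given. All 7 passed the threshold of the linear model in limma (adjusted p under 0.05, Benjamini-Hochberg over all probe sets) as lower in the mutant, as did 4.43% of all probe sets. In all 7 every mutant array was below every wild-type array, and this held for 13.1% of all probe sets. Nothing is read from these counts. The log2 differences, mutant minus wild type on the scale of log2(signal + 32), lay between -2.48 and -1.19 with a median of -2.11, beside a median of 0.00 over all probe sets. The ratio of mean signals, wild type over mutant, lay between 3.09 and 9.03, and rests on mutant signals that were not shown to lie above background.

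LOC4338414, read by probe set Os.27075.1.S1_at, had signals of 311.5, 315.9 and 324.0 on wild-type arrays 1 to 3 and of 38.5, 29.4 and 41.9 on mutant arrays 1 to 3. The wild-type arrays differed little from each other, and the lowest of them was 7.44 times the highest mutant array, the widest gap in this direction among all probe sets tested. The means were 317.1 ± 6.31 (SD, n = 3) in wild type and 36.6 ± 6.43 in the mutant, and the log2 difference was -2.35 (SE 0.09).

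LOC4333210, read by Os.52294.1.S1_at, gave signals of 376.4, 333.4 and 463.5 on the wild-type arrays and of 42.6, 39.8 and 47.5 on the mutant arrays. Wild-type array 3 was the highest and the mutant arrays lay close together. The means were 391.1 ± 66.3 (SD, n = 3) and 43.3 ± 3.91, and the log2 difference of -2.48 (SE 0.11) was the lowest of the 7.

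LOC4334834, read by Os.53006.1.S1_at, gave signals of 322.0, 334.5 and 371.0 on the wild-type arrays and of 55.4, 54.6 and 54.6 on the mutant arrays. The mutant arrays were almost equal, with a standard deviation of 0.89% of their mean. The means were 342.5 ± 25.4 (SD, n = 3) and 54.9 ± 0.49, with a log2 difference of -2.11 (SE 0.08).

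LOC4330133, read by Os.15696.1.S1_a_at, gave signals of 260.4, 262.1 and 249.5 on the wild-type arrays and of 50.02, 39.7 and 40.01 on the mutant arrays. Mutant array 1 was the highest of its group and still far below the lowest wild-type array. The means were 257.3 ± 6.86 (SD, n = 3) and 43.2 ± 5.87, with a log2 difference of -1.95 (SE 0.09). The suffix a marks, in the maker's naming, a probe set shared by transcripts of 1 gene.

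LOC4344207, read by Os.32357.1.S1_at, had the narrowest gap of the 7. Its signals were 200.3, 150.3 and 141.0 on the wild-type arrays and 53.5, 50.3 and 55.3 on the mutant arrays. Wild-type array 1 stood above the other two, and the lowest wild-type array was 2.55 times the highest mutant array. The means were 163.8 ± 31.9 (SD, n = 3) and 53.1 ± 2.54, with a log2 difference of -1.19 (SE 0.11).

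The probe sets with no gene named behaved alike in kind. Os.50367.1.A1_at gave signals of 206.0, 285.0 and 219.4 on the wild-type arrays and of 25.6, 26.9 and 28.6 on the mutant arrays, with wild-type array 2 the highest and a log2 difference of -2.18 (SE 0.11). OsAffx.4907.1.S1_x_at gave signals of 281.6, 200.6 and 223.7 on the wild-type arrays and of 38.1, 46.8 and 31.1 on the mutant arrays, with a log2 difference of -1.91 (SE 0.12). The suffix x marks probes that may also pair with other transcripts, so this signal may come from more than 1 transcript.

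**Figure D2:**
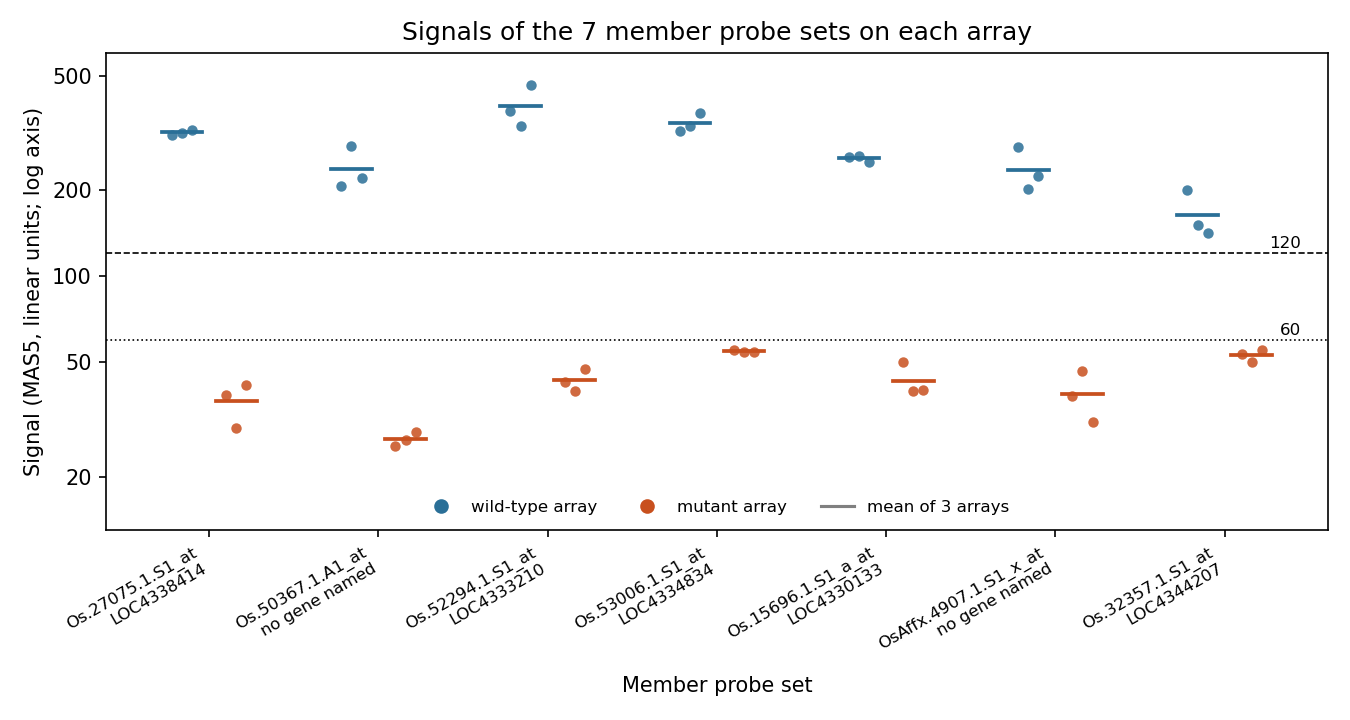
Signals (linear MAS5 units, log axis) of the 7 members, ordered by the ratio of the lowest wild-type to the highest mutant signal, with 1 point per array and a bar at the mean of 3 arrays. Wild-type arrays (blue) lie between 141.0 and 463.5 and mutant arrays (orange) between 25.6 and 55.4; the lines mark the limits of 120 and 60.

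The members differed in how steady they were among wild-type seedlings. The standard deviation was 1.99% of the mean for LOC4338414, 2.67% for LOC4330133 and 7.43% for LOC4334834, whereas it was between 16.95% and 19.5% for the other 4 members. The median was 9.83% over 7810 other probe sets whose wild-type mean lay in the same range, with 3 members below it. No single wild-type array was the highest throughout: array 1 was highest in 2 members, array 2 in 2 and array 3 in 3. Among the mutant arrays the spread ran from 0.89% to 20.3% of the mean, against a median of 9.61% over 13190 other probe sets in the mutant range of the members. The limits hold on each array of a member and so restrict both spreads, whereas the other probe sets were matched by mean alone.

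The genes LOC4333210 and LOC4344207 had further probe sets, 5 in all, which did not meet the limits. They come from the same RNA, so their values are a description. For LOC4333210 they did not follow the member. Os.47722.1.S1_at gave signals of 177.7, 186.5 and 226.8 on the wild-type arrays and of 245.0, 255.1 and 253.2 on the mutant arrays, with a log2 difference of 0.31 (SE 0.10). Every mutant array of this probe set was above every wild-type array, opposite to the member of the same gene. The share of all probe sets separated in this direction was not counted, so nothing is read from the separation.

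Os.45017.1.S1_at gave means of 104.5 ± 3.28 (SD, n = 3) in wild type and 92.3 ± 5.06 in the mutant, with a log2 difference of -0.14 (SE 0.08). Os.9825.1.S1_at was dim in both genotypes, at 33.6 ± 4.29 and 32.9 ± 2.81. The 3 other probe sets that the annotation assigns to LOC4333210 thus differed little between the genotypes or in the other direction from Os.52294.1.S1_at. Which part of the gene each probe set reads is not given in the sources used here.

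For LOC4344207 both other probe sets were lower in the mutant, by less than the member. Os.32357.1.S1_x_at gave signals of 185.6, 126.8 and 141.8 on the wild-type arrays and of 76.9, 78.3 and 73.5 on the mutant arrays, with a log2 difference of -0.75 (SE 0.11). Os.10002.1.S1_at gave signals of 125.2, 96.0 and 85.1 on the wild-type arrays and of 70.03, 60.3 and 64.5 on the mutant arrays, with a log2 difference of -0.46 (SE 0.11). In both of these every wild-type array was above every mutant array, as in 13.1% of all probe sets. The member does so by the limits. The suffix x again marks probes that may pair with other transcripts. Os.32357.1.S1_x_at also shares its identifier number with the member, so it may not be a separate reading. Wild-type array 1 was the highest in all 3 probe sets of this gene. The genes LOC4338414, LOC4334834 and LOC4330133 had 1 probe set each, so nothing within the array can be set beside their signals.

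**Figure D3:**
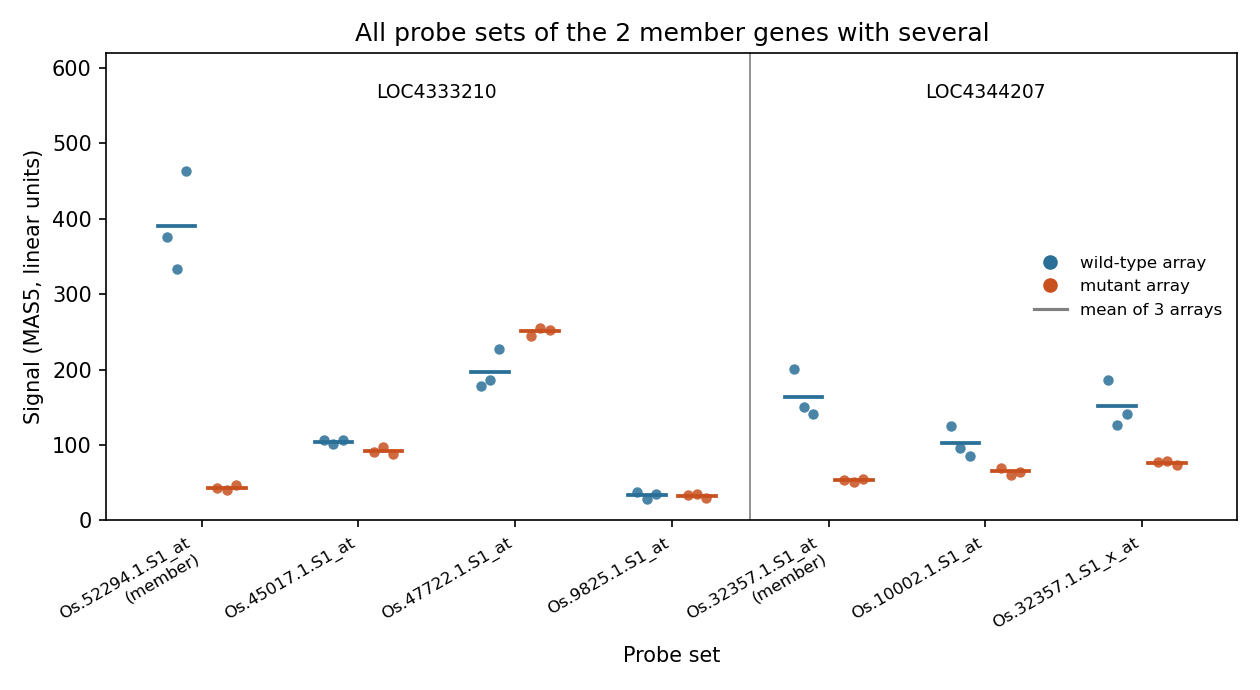
Signals (linear MAS5 units) of all probe sets of LOC4333210 (left) and LOC4344207 (right), 1 point per array with bars at the means; the member is named on the axis. For LOC4333210 the member separates the genotypes while Os.47722.1.S1_at is higher on the mutant arrays; for LOC4344207 all 3 probe sets are lower on the mutant arrays.

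The member genes were scattered through the genome. In the order of genes in the rice gene table (assembly ASM3414082v1) they lay on 4 chromosomes, and the single pair on 1 chromosome, LOC4333210 and LOC4334834, had 1972 genes between them. Of the 50 genes within 5 positions of a member gene on either side, 24 had a probe set, and none of their 34 probe sets was a member. In the limma fit over all probe sets, 2 of the 34 passed as lower and 4 as higher, where 8.16% and 9.96% of the probe sets that named 1 gene did. The log2 differences of the neighbours lay between -0.82 and 0.97 with a median of -0.05, so none was as low as that of any member.

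The next gene to LOC4333210, LOC4333209, was the lowest of these neighbours. Its signals were 1219.9, 944.9 and 903.3 on the wild-type arrays and 577.1, 609.6 and 504.8 on the mutant arrays, with a log2 difference of -0.82 (SE 0.13, adjusted p = 0.0033 in limma). The other neighbour that passed as lower, LOC4330131 near LOC4330133, had -0.37 (SE 0.09, adjusted p = 0.0224 in limma). LOC4344210, listed with the name SODCC.2, a copper and zinc superoxide dismutase gene that removes superoxide, lies 3 positions from LOC4344207 and was the highest. It gave signals of 1183.7, 1009.1 and 937.0 on the wild-type arrays and of 2032.5, 2147.6 and 2006.1 on the mutant arrays, with a log2 difference of 0.97 (SE 0.10, adjusted p = 0.000453 in limma).

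LOC4330134, next to LOC4330133, had 0.39 (SE 0.09, adjusted p = 0.0174 in limma). LOC4334838 and LOC4338409 rose by 0.47 and 0.51 on the log2 scale (adjusted p = 0.0105 and 0.0112 in limma). On either side of LOC4334834, LOC4334833, listed as OEP24, and LOC4334835 had log2 differences of 0.17 (SE 0.09) and -0.42 (SE 0.12) and did not pass (adjusted p = 0.288 and 0.0539 in limma). The calls of LOC4330131, LOC4330134, LOC4334838 and LOC4338409 were lost when mutant replicate 2 was left out (the first 2 also without mutant replicate 3, and LOC4330134 and LOC4338409 also without wild-type replicate 2; adjusted p up to 0.122 in limma). LOC4334835 passed under 5 of 14 alternatives. These 8 neighbours were singled out after their values were seen.

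**Figure D4:**
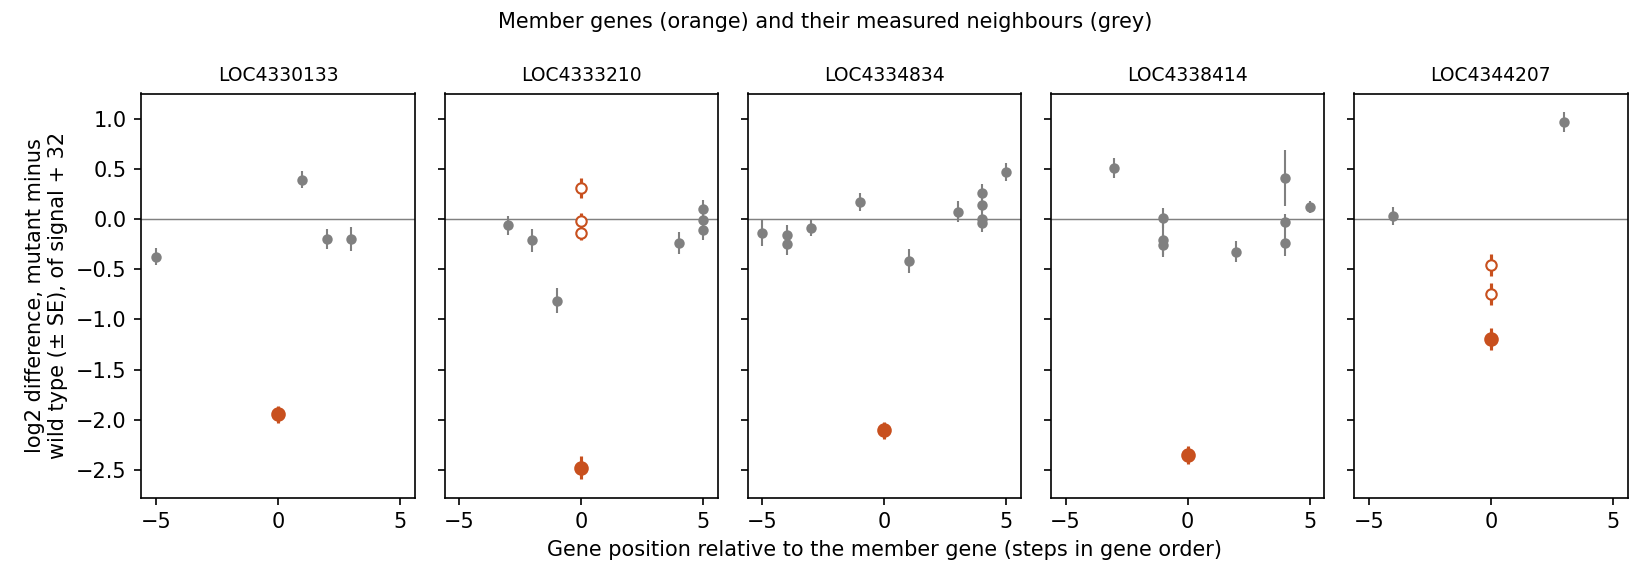
Log2 difference, mutant minus wild type on the scale of log2(signal + 32), against the place in gene order within 5 genes of each member gene; bars are the model's SE and open circles are the other probe sets of a member gene. The members (filled orange) lie between -2.48 and -1.19, and the measured neighbours (grey) between -0.82 and 0.97.

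The limits cut through a range of transcripts. The members nearest the lower limit were LOC4344207, whose lowest wild-type signal was 141.0, and OsAffx.4907.1.S1_x_at and Os.50367.1.A1_at, with 200.6 and 206.0. The members nearest the upper limit were LOC4334834, LOC4344207 and LOC4330133, with highest mutant signals of 55.4, 55.3 and 50.02. Just outside, OsAffx.27757.1.S1_at missed on mutant array 2 alone, with signals of 195.9, 193.2 and 191.6 in wild type and of 52.3, 60.06 and 57.1 in the mutant. OsAffx.26276.1.S1_at had signals of 407.8, 381.5 and 341.9 in wild type and of 68.5, 62.7 and 53.9 in the mutant, so that its lowest wild-type array was 4.99 times its highest mutant array, a wider gap than in LOC4344207 and OsAffx.4907.1.S1_x_at and about that of LOC4330133, also 4.99. LOC4341254, read by Os.14895.1.S1_at, had a lowest wild-type signal of 121.1 and a highest mutant signal of 67.2.

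On the wild-type side, Os.54084.1.S1_at missed the limit with signals of 127.0, 100.4 and 143.0 in wild type and of 22.3, 21.2 and 14.1 in the mutant. LOC4347266, read by Os.52451.1.A1_at, varied several-fold among wild-type arrays, with 460.2, 158.4 and 98.9, and had 34.7, 15.3 and 14.2 in the mutant. LOC4329504, read by Os.46107.1.S2_a_at, had a lowest wild-type signal of 99.7 and a highest mutant signal of 59.4.

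The members were also a small part of the sharp differences. In 61 probe sets the lowest wild-type array was at least 2 times the highest mutant array. Besides the 7 members, 41 of these stayed above 60 on some mutant array with wild type at or above 120, and 13 had wild type below 120 and were at or below 60 on all mutant arrays. At this gap a lowest wild-type signal below 120 forces every mutant signal below 60. The members reach the gap by their limits. At a gap of at least 5, 4 of 5 probe sets were members. The other was LOC9269692, read by Os.14861.1.S1_s_at and singled out after its values were seen, with 102.4, 83.9 and 75.5 on the wild-type arrays and 12.7, 9.51 and 13.8 on the mutant arrays.

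The members have no gene name, so a list matched by name could not hold any of them and is given for context. Of 19 probe sets of 13 chromatin regulator genes, 2 were lower and 2 higher in the limma fit, beside 8.16% and 9.96% of the probe sets that named 1 gene, and the list median was -0.04 on the log2 scale, beside 0.01. EZ1, a histone methyltransferase of Polycomb repressive complex 2, fell from 291.8 ± 19.9 (SD, n = 3) to 226.7 ± 8.93 (log2 difference -0.32, SE 0.09, adjusted p = 0.0467 in limma). Only 2 genes of this complex were matched by name. The histone demethylase gene JMJ706 fell by 0.70 (SE 0.19, adjusted p = 0.0426 in limma) in 1 of its probe sets. That JMJ706 probe set has the suffix x, so its signal may come from more than 1 transcript. The other JMJ706 probe set, without this suffix, had -0.60 and did not pass (adjusted p = 0.0862 in limma). The call of EZ1 was lost with quantile normalization, with the replicate number as a block and when any array other than wild-type replicate 3 was left out (adjusted p up to 0.147 in limma), and that of JMJ706 when mutant replicate 2 or 3 or wild-type replicate 1 or 2 was left out (up to 0.158). The DNA methyltransferase genes CMT3 and MET1-2 rose by 0.68 (SE 0.12, adjusted p = 0.00521 in limma) and 0.63 (SE 0.10, adjusted p = 0.00328 in limma).

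The tissue labels were read against marker genes. The sums took the brightest probe set of each gene. For 5 shoot genes the summed signal was 30738 to 31418 in wild type and 30389 to 32136 in the mutant. Most of it came from RBCS-C, with means of 15987 in wild type and 16098 in the mutant, and CAB2R, with 11217 and 11588. This RBCS-C probe set has the suffix x, so its signal may come from more than 1 transcript. The other probe sets of RBCS-C had wild-type means between 48.7 and 3157. Another of the shoot genes, RBCS1, was dim, at 14.5 ± 4.31 (SD, n = 3) in wild type and 14.9 ± 3.18 in the mutant. Summed signals were 519.8 to 583.6 in wild type and 461.5 to 527.6 in the mutant for 7 root genes. They were 776.1 to 832.8 and 661.6 to 704.2 for 8 seed endosperm genes, and 207.8 to 284.8 and 215.2 to 248.4 for 5 embryo genes. For 2 anther and pollen genes they were 81.9 to 87.1 and 90.8 to 97.7. Among the root genes only Lsi1 was above 60 on any array, with means of 341.9 in wild type and 306.5 in the mutant. Among the embryo genes only RAB16C was, with 118.9 and 107.6. Of these 27 genes 1 passed in limma, the endosperm glutelin gene GLUA-2, which fell by 0.54 (SE 0.09, adjusted p = 0.00468). That was in 1 of its probe sets, and the other, dimmer one had 0.13 (adjusted p = 0.375 in limma). Summed signals were lower on every mutant array than on any wild-type array for the endosperm genes and higher for the anther and pollen genes. The anther and pollen genes, RTS and OsC6, were below 60 on all arrays. Neither passed (adjusted p = 0.898 and 0.149 in limma), so no rise is read from their sum. Without GLUA-2 the other 7 endosperm genes overlapped, at 421.6 to 467.1 in wild type and 405.9 to 461.1 in the mutant. The part of these genes in the members' differences was not tested.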

How the data were processed

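The deposited values were probe set intensity on a linear scale, made by the authors with MAS5, per the submitters' processing notes. The sources used here do not state the version, background, scaling settings or genome build. Of 57381 probe sets, 123 with AFFX and 64 with RPTR identifiers were left out. Signals were taken as deposited for the limits, and as log2(signal + 32) for limma 3.58.1 under R 4.3.3 (lmFit, eBayes with trend, 2-sided), which was tested on simulated data. The offset lowers the differences of dim probe sets. Plots and joins used Python 3.11.15, pandas 2.3.3 and matplotlib 3.10.9. Precision is limited by having 3 arrays per genotype. The p-values weigh the difference between the genotypes against the spread among samples within them, moderated over all probe sets. That spread may be technical. The members, lists and tests were chosen with earlier results of these data known. Every member was named, with the 3 nearest probe sets inside and outside each limit. Gene names came from the array annotation and the rice gene table, where all 5 member genes matched. Chromatin and marker genes were matched by symbol or synonym. List members past the threshold were named, and others after their values were seen. Promoter and protein sequences and motifs were not used here. The alternatives were other limits, offsets, scalings, filters and fits, a replicate block, and each array left out.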

Additional observations from a re-analysis of the deposited data

Results flagged for a closer look

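Probe sets with RPTR identifiers, which the maker uses for reporter and vector sequences, were left out of every comparison, and 3 of 64 gave signals on all mutant arrays at least 2 times the highest wild-type signal. RPTR-Os-K01193-1_at had a mean of 9839.5 ± 197 (SD, n = 3) in the mutant and 15.2 ± 2.54 in wild type. RPTR-Os-A06498-1_at had 295.0 ± 18.2 and 25.4 ± 3.01, and RPTR-Os-A00196-1_s_at had 289.0 ± 17.6 and 51.4 ± 4.55. All 3 arrays labelled mutant carried these signals, and none of the 3 labelled wild type did. What sequence each of them reads is not stated in the tables used here. Among the other 61, the lowest mutant signal was at most 1.10 times the highest wild-type one. On the wild-type arrays 56 of the 64 were at or below 60 throughout.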

How the results depend on the processing

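The number of probe sets inside the limits depended on the limits. Limits of 150 and 50 left 4 and limits of 100 and 75 gave 26. The mirror count went from 40 to 23 and 85 under the same changes. Quantile normalization and equal medians each gave 8, the 7 members and OsAffx.27757.1.S1_at. Leaving out an array only removes a condition, so the members stay in and neither count can fall. The count then lay between 7 and 12, reaching 12 when mutant replicate 1 and 11 when wild-type replicate 3 was left out, and the mirror count lay between 41 and 46. The members' limma calls (7 of 7 throughout) follow from how they were chosen and show nothing about stability. The count of all probe sets called lower lay between 916 and 2838 with an array left out (916 when mutant replicate 2 was left out, 1071 for mutant replicate 3 and 1356 for wild-type replicate 2; the cause was not tested) and was between 2385 and 2852 otherwise. With the replicate block it was 2385. Over all probe sets, the deviations of same-numbered arrays from their group means had correlations of 0.01, -0.17 and 0.09 for numbers 1, 2 and 3. Arrays of unlike number had -0.15 to 0.16. Whether the numbers pair the samples stays unknown, because such correlations could miss a shared sowing or day that touched few transcripts. The median member difference was -2.62 with the smaller offset, 1, and -1.23 with the larger offset, because the offset damps dim signals, -2.11 with the replicate block, and between -2.15 and -2.05 with an array left out. For the 14 named probe sets outside the members the same 14 alternatives were added after the data were seen; none changed a direction, and CMT3, MET1-2, GLUA-2, LOC4333209 and LOC4344210 passed under each of them.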
